A study of Mus musculus with 15 samples.

Results

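The p53 target genes described here are 37 mouse genes listed as induced by the transcription factor p53, grouped by their role in cell-cycle arrest (10 genes), cell death (9), DNA repair (6), metabolism (7) and signalling (5). Every array probe with the symbol of a listed gene was taken, which gave 69 probes for 36 genes. A gene was kept when a probe lay above background, with a detection p under 0.05, on at least 3 of the 12 pro-B arrays, and it was then represented by its kept probe of highest mean. This left 32 of the 37 genes, among 9687 genes kept in all. Btg2, Eda2r, Perp and Tgfa had a probe but were not kept, and Gdf15 was not analysed here. Of the 32 kept genes, 21 were above background on all 12 pro-B arrays. Ak1 was kept only through the group in which it was high, and it therefore had to differ.

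The study measured total RNA of mouse cells on Illumina bead arrays, with 15 arrays in 5 groups of 3. The pro-B cells, early B lineage precursors, came from bone marrow of mice of mixed C57BL/6 and 129S5 background aged 6 to 8 weeks. They were grown for 10 days with IL-7, Flt3L and SCF at 50 ng/ml each, and the series text speaks of 3 culture batches. Control arrays (title EAAE-OHT) are labelled wild type, and labelled deficient arrays (EAAE+OHT) are labelled Bcl11a-deficient. Bcl2 control arrays (Bcl2-OHT) are labelled as wild type with Bcl2 overexpression, and Bcl2-rescued arrays (Bcl2+OHT) as Bcl2-rescued Bcl11a-deficient. Bcl11a is a transcription factor of early lymphoid cells, and Bcl2 is a protein that blocks mitochondrial cell death. The labels do not spell out EAAE or OHT, nor the allele or vector behind the deletion and the overexpression. The titles of both deficient groups hold +OHT and those of both control groups -OHT, so OHT and the deficiency cannot be told apart. The fifth group, titled DN3, is labelled Bcl11bCKO/CKO, tissue lymphocytes, strain C57B7, with the same ages and the same growth protocol text.

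p53 is a transcription factor that is stabilised when DNA is damaged or growth is deregulated, and it then switches on genes that halt the cell cycle, repair DNA, adjust metabolism or trigger cell death. In developing lymphocytes it removes cells with damaged or failed rearrangement, and Bcl2 acts downstream of it by blocking the mitochondrial death that p53 targets set off. Expression of these targets is a common readout of p53 activity, although many of them also answer to other factors.

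The promoters of 4 members whose RNA differed between groups are shown because each holds the p53 decamer, given in capitals. This 10-base element is only 1 of the 2 that make up a full p53 site. The sequences are the 250 bases before the transcription start in RefSeq on GRCm38.p6, all from the minus strand. Polk has 2 listed starts, and the window of the other start holds no decamer. The 3 members that rose in Bcl2-rescued cells against Bcl2 control cells are Ccng1 at chr11:40755287-40755536, Gadd45a at chr6:67037408-67037657 and Polk at chr13:96519188-96519437, and the member that fell is Ckap2 at chr8:22185820-22186069.
Ccng1: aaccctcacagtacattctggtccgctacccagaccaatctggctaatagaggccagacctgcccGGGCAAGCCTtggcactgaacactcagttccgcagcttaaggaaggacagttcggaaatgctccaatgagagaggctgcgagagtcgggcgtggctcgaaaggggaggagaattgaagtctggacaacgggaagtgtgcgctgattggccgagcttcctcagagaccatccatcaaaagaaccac
Gadd45a: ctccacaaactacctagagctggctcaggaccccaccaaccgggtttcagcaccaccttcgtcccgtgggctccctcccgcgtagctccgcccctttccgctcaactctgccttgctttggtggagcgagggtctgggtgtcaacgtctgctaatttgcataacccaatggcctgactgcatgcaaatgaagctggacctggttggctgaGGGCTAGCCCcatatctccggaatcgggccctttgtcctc
Polk: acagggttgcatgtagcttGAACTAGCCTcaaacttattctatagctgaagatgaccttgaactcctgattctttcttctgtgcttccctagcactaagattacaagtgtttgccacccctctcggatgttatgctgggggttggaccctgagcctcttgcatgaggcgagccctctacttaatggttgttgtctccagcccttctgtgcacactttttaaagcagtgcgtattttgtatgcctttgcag
Ckap2: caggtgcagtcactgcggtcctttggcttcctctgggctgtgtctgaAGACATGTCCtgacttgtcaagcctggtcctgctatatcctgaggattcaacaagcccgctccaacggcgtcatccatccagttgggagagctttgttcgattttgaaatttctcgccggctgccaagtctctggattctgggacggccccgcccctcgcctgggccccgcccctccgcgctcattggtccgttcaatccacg
The first base of the element lay at -185 from the start in Ccng1, at -40 in Gadd45a, at -231 in Polk and at -203 in Ckap2. Among windows from 250 bases before to 50 bases after a start, 29 of the 37 members had at least 1 window, and 10 of these 29 genes (34.5%) held the decamer. Over all 27025 genes with a window, 9.55% held it. The element reads the same on both strands, so a single strand was searched. No member window held a full site, a pair of decamers at most 13 bases apart, the arrangement found in 0.0731% of 32851 windows. Of the members with a window that rose in Bcl2-rescued against Bcl2 control cells, 4 of 9 held the decamer, and of the kept members that did not rise, 6 of 16 did. These matches describe the letters of the windows only.

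Before the results, 3 facts of the arrays bear on them. Bcl11a went against its label without Bcl2, where it was higher on the labelled deficient arrays by 1.87 ± 0.20 (SE) on the log2 scale (limma, Benjamini-Hochberg adjusted p = 0.00327), and with its label under Bcl2, where it was lower, at -0.79 ± 0.20 (adjusted p = 0.0123). Whether its probe reads the deleted part of the gene is unstated in the labels. The Bcl2 probe did not pass in any pro-B comparison, with -0.83 ± 0.40 between Bcl2 control and control arrays. Control replicate 3 was the dimmest pro-B array, with a mean intensity of 187 and 11473 probes above background, against 445 to 769 and 14946 to 16422 on the other 11. Early B genes were abundant in every pro-B group (summed linear level of 9 genes between 77500 and 109000), although Vpreb2, a surrogate light chain gene, was above background in none of these groups and Pax5, which fixes B lineage identity, was below background on all labelled deficient and all Bcl2 control arrays.

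Without Bcl2, the p53 target genes did not pass between labelled deficient and control cells. Under limma, 0 of the 32 members passed an adjusted p of 0.05 in either direction, and 0.031% of all genes passed (0.0103% higher). At an unadjusted p under 0.05 there were 5 of the 32 members and 581 of all 9687 genes. The median log2 fold change of the members was 0.20, against 0.01 over all genes. With members below background set to their bound the members' median was 0.19. The smallest p belonged to Fas, which encodes a death receptor of the tumour necrosis factor receptor family, with a log2 fold change of 1.27 ± 0.28 (adjusted p = 0.432). Fas read 5.70, 6.37 and 5.36 on the control arrays and 6.62, 7.55 and 7.07 on the labelled deficient arrays. These groups did not overlap, although the Fas probe was above background on only 1 of the 3 control arrays, and the difference was 0.49 over the mean of the Fas probes. Next came Xpc, a sensor of distorted DNA, at -0.44 ± 0.15 (adjusted p = 0.712), with 10.20, 10.05 and 10.09 on control and 9.77, 9.60 and 9.66 on labelled deficient arrays. Phlda3, an inhibitor of the survival kinase Akt, had a difference of 1.69 ± 0.60 (adjusted p = 0.73), and leaving out control replicate 3 brought it to 0.83. Zmat3, an RNA-binding regulator of splicing, had 0.57 ± 0.21 (adjusted p = 0.743), and 0.35 without labelled deficient replicate 2. Between these groups 3 members (Fas, Phlda3 and Lif) had all labelled deficient arrays above all control arrays, against 3.7% of all genes, and Xpc had them all below, against 4.17%.

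Under Bcl2 the same labels gave another picture. Of the 32 members, 12 rose and 1 fell in Bcl2-rescued against Bcl2 control cells, where 12.8% of all genes rose and 12.3% fell (25% passed in all). The members' median log2 fold change was 0.68, and that of all genes 0.04. Those that rose were Fas, Zmat3 and Trp53inp1 among 7 death genes, Ccng1 and Gadd45a among 9 arrest genes, Polk and Ercc5 among 6 repair genes, Ephx1, Slc19a2, Ak1 and Abhd4 among 7 metabolic genes, and Pvt1 among 3 signalling genes. The member that fell was Ckap2. The count of 12 includes Ak1, which had to differ. Arrays of these groups did not overlap for 17 members that were higher, Ak1 included, and 2 that were lower, against 28.3% and 24.8% of all genes.

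Bcl2 itself went with higher levels of many of the same targets. In control cells, 10 members rose and 0 fell with Bcl2, where 4.28% of all genes rose and 3.85% fell (8.13% in all), with a median of 0.60 over the members and 0.03 over all genes. In labelled deficient cells, 21 rose and 2 fell with Bcl2, where 21.3% of all genes rose and 18.2% fell (39.5% in all), with medians of 1.01 and 0.05. The 21 include Ak1, which had to differ. Without control replicate 3, 17 members passed in the control state (16 higher, 1 lower), 1981 genes in all instead of 788. In a fit of only the control and Bcl2 control arrays 5 members passed, and Dyrk3, Phlda3, Pvt1, Slc19a2 and Trp53inp1 did not (adjusted p 0.0509 to 0.22). The 2 Bcl2 comparisons share no array with each other, but each shares arrays with both label comparisons. Bcl2 and slide were partly mixed. Replicates 1 and 2 of the control and labelled deficient groups were on slide 1, but only replicate 1 of each Bcl2 group. Their other replicates were on slide 2. The differences of the 10 and 23 called members had the same sign within both slides. With slide as a block 13 and 23 members passed, and 1159 and 4018 of all genes.

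**Figure D1:**
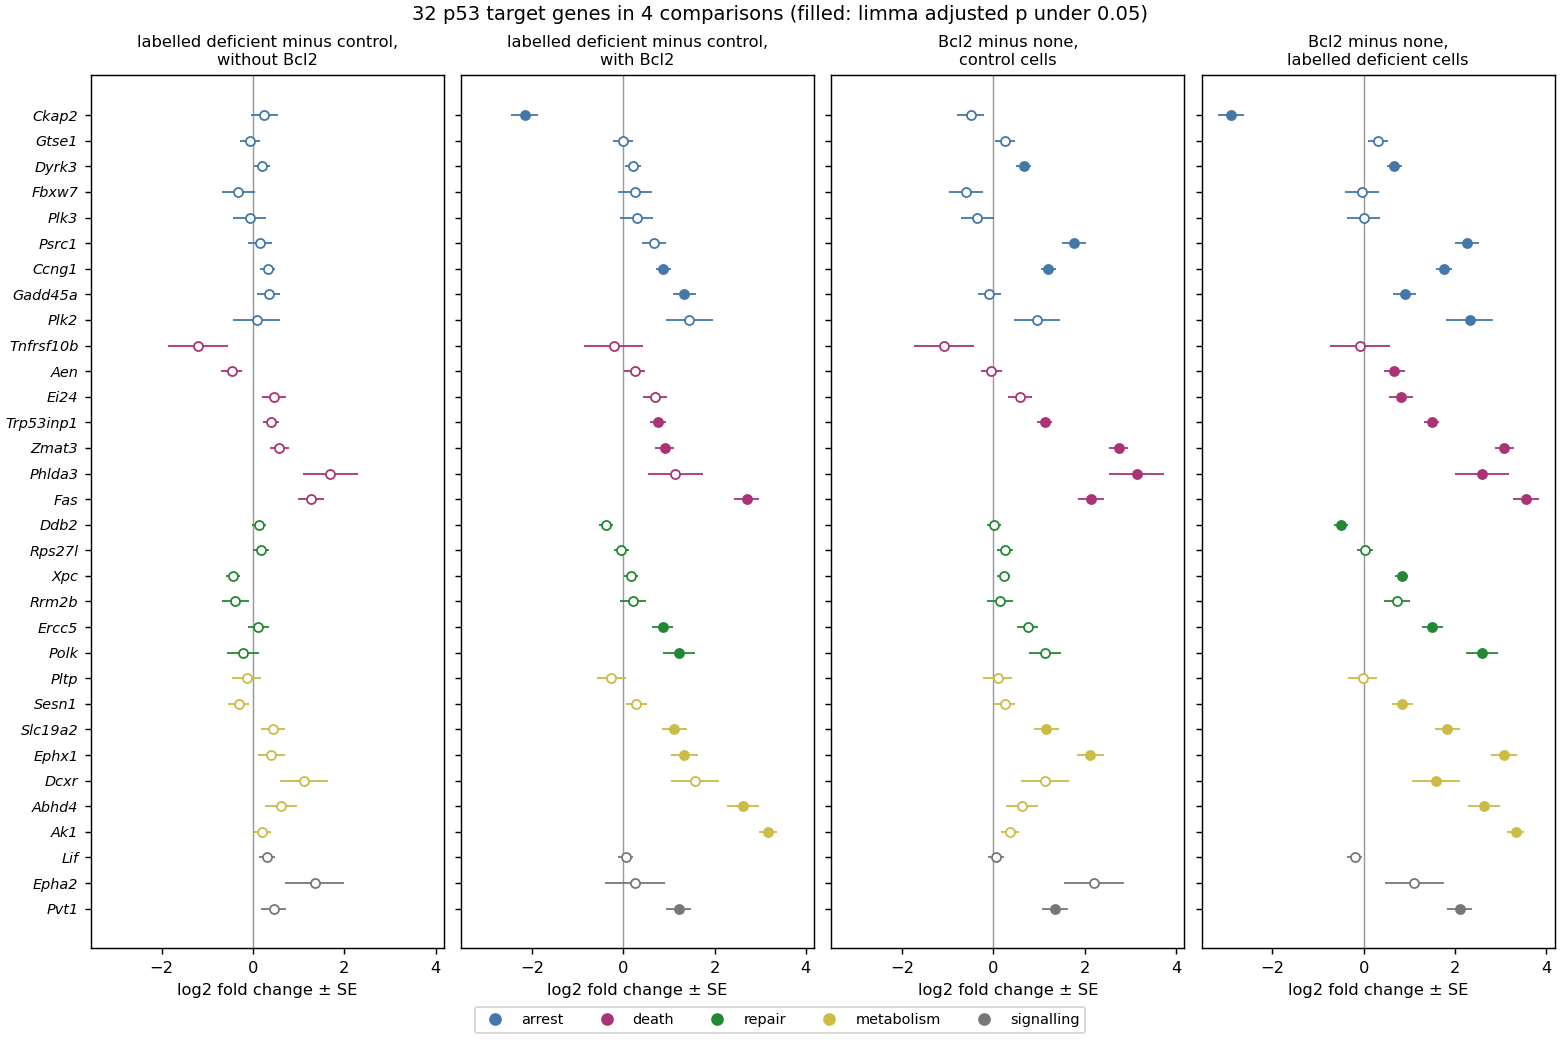
Log2 fold change ± SE of the 32 kept p53 target genes (rows, coloured by role) in 4 comparisons of 3 against 3 pro-B arrays, with filled points for a limma adjusted p under 0.05. The leftmost panel has 0 filled points, and the panels to its right have 13, 10 and 23.

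Among the arrest genes, Ccng1 (cyclin G1, a strongly p53-induced cyclin) was the most regular. Its normalised log2 intensities were 12.05, 12.03 and 12.09 on the control arrays, 12.31, 12.73 and 12.08 on the labelled deficient arrays, 13.25, 13.18 and 13.35 on the Bcl2 control arrays, and 14.07, 14.10 and 14.24 on the Bcl2-rescued arrays. All Bcl2 arrays lay above all arrays without Bcl2, and the Bcl2-rescued arrays lay highest. Ccng1 rose by 1.20 ± 0.17 with Bcl2 in control cells (limma adjusted p = 0.00172), by 1.76 ± 0.17 with Bcl2 in labelled deficient cells (adjusted p = 1.31e-05) and by 0.88 ± 0.17 in Bcl2-rescued against Bcl2 control cells (adjusted p = 0.0031). The last difference was 0.82 within slide 1 and 0.90 within slide 2. Its remaining probes passed in the comparisons with Bcl2-rescued arrays, and in control cells 1 of them passed at 0.76 and the other did not at 0.46.

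Psrc1, a spindle microtubule protein, passed with Bcl2 in both states. It read 7.04, 6.70 and 6.73 on control, 6.67, 7.59 and 6.66 on labelled deficient, 8.42, 8.32 and 9.0 on Bcl2 control, and 9.22, 9.14 and 9.38 on Bcl2-rescued arrays. The 6 Bcl2 arrays all stood above the 6 without Bcl2. Psrc1 rose with Bcl2 by 1.76 ± 0.26 in control cells (limma adjusted p = 0.00218) and by 2.27 ± 0.26 in labelled deficient cells (adjusted p = 4.88e-05). Its difference between the Bcl2 groups was 0.67 ± 0.26 and did not pass (adjusted p = 0.0883), although the Bcl2-rescued arrays lay above all others.

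Dyrk3, a kinase that dissolves stress granules, was higher with Bcl2 by a smaller step, from 9.32, 9.66 and 9.80 on control to 10.06, 10.33 and 10.36 on Bcl2 control arrays (0.66 ± 0.17, limma adjusted p = 0.0372), and by 0.67 ± 0.17 in labelled deficient cells (adjusted p = 0.00887). All Bcl2 arrays lay above all arrays without Bcl2. In control cells its call was lost on leaving out any of 10 of the 12 pro-B arrays, all but control replicate 3 and Bcl2-rescued replicate 3.

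Gadd45a, which binds cell-cycle kinases and helps to halt cells at the G2/M boundary, was high on the Bcl2-rescued arrays. It was at 9.60, 10.03 and 8.93 on control, 9.68, 10.08 and 9.82 on labelled deficient, 9.46, 9.64 and 9.19 on Bcl2 control, and 10.88, 10.81 and 10.61 on Bcl2-rescued arrays. Only the Bcl2-rescued arrays stood apart from the rest, and the other 9 overlapped. The rise was 1.34 ± 0.25 against Bcl2 control (limma adjusted p = 0.00254) and 0.90 ± 0.25 against labelled deficient arrays (adjusted p = 0.0142), while Bcl2 in control cells gave -0.09 ± 0.25. Its second probe passed in the same comparisons.

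Plk2, a stress-responsive kinase, rose by 2.32 ± 0.51 with Bcl2 in labelled deficient cells (limma adjusted p = 0.00357) and missed the threshold between the Bcl2 groups at 1.45 ± 0.51 (adjusted p = 0.057). Its Bcl2-rescued arrays, at 9.34, 9.43 and 9.38, lay above the other 9, which ran from 6.01 to 8.61.

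Ckap2, a spindle protein made mainly in dividing cells, fell on the Bcl2-rescued arrays. It stood at 10.22, 10.10 and 9.03 on control, 10.17, 9.83 and 10.11 on labelled deficient, 9.55, 9.33 and 8.96 on Bcl2 control, and 7.23, 6.94 and 7.21 on Bcl2-rescued arrays. The Bcl2-rescued arrays lay below all others. The change was -2.16 ± 0.29 against Bcl2 control (limma adjusted p = 0.000246) and -2.91 ± 0.29 against labelled deficient arrays (adjusted p = 1.44e-05). Gtse1, Fbxw7 and Plk3, the other arrest members kept, did not pass in any comparison of pro-B groups.

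**Figure D2:**
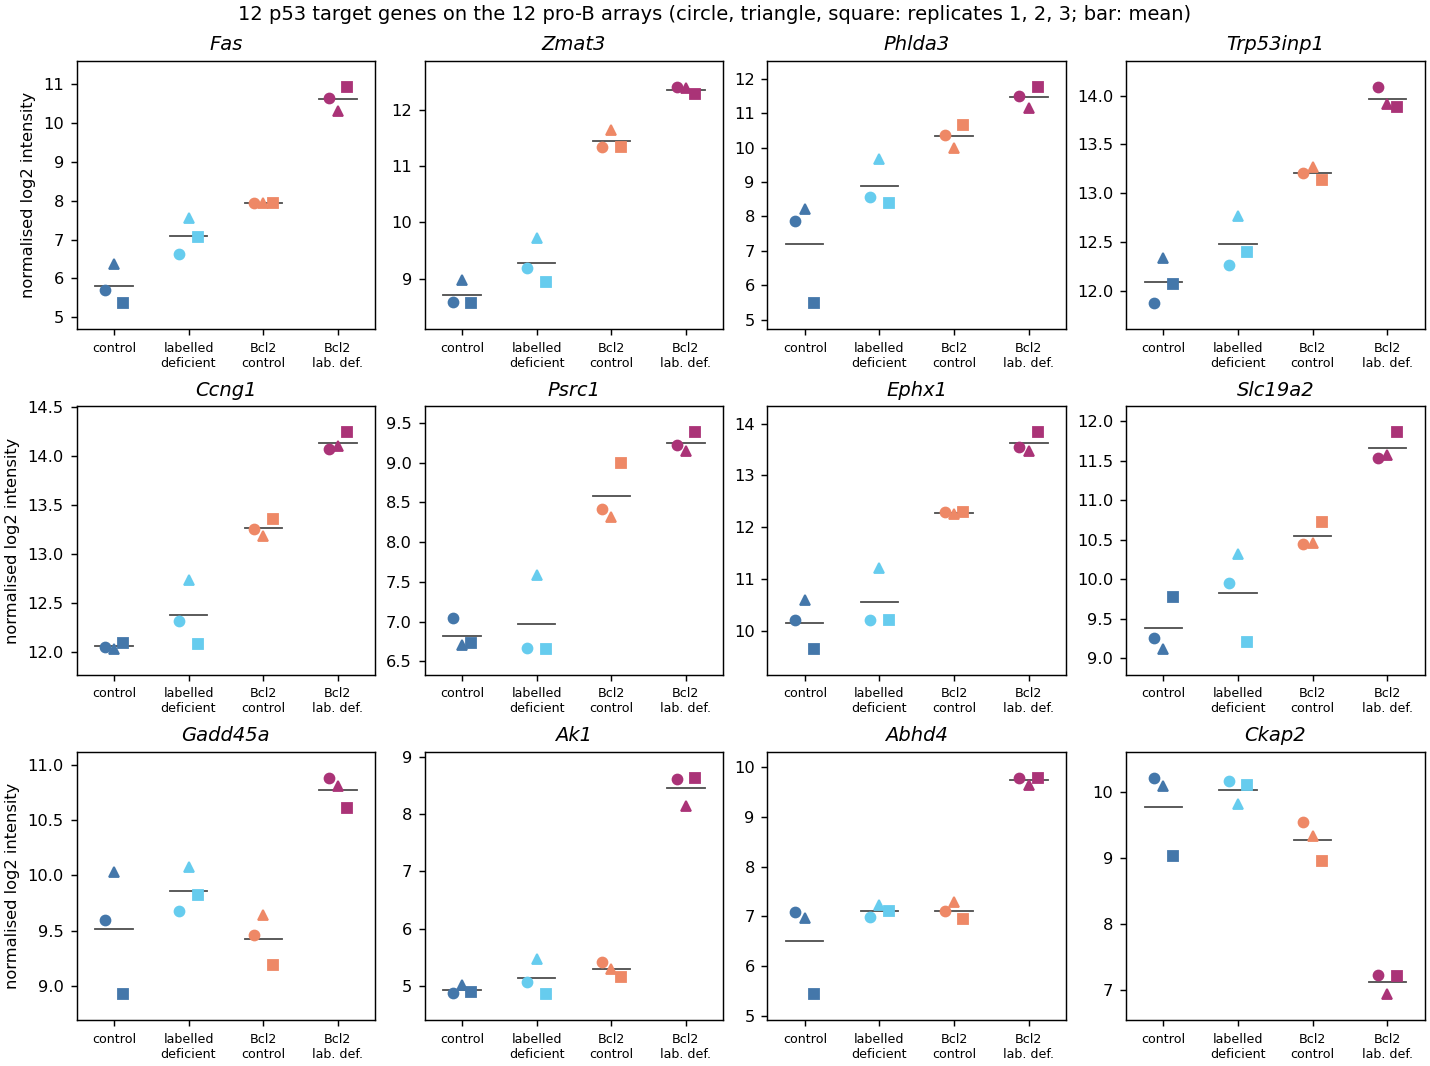
Normalised log2 intensity (vertical axis, its own range per gene) of 12 p53 target genes on the 12 pro-B arrays, with a symbol per replicate and a bar at each group mean. The group means of Fas, Zmat3, Ccng1 and Ephx1 are lowest on control and highest on Bcl2-rescued arrays, whereas Gadd45a, Ak1 and Abhd4 are high on the Bcl2-rescued arrays alone and Ckap2 is low there.

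In the death group, Fas had the largest change in the label comparison under Bcl2 after Ak1. It read 7.93, 7.95 and 7.93 on Bcl2 control arrays and 10.65, 10.32 and 10.93 on Bcl2-rescued arrays, beside the values without Bcl2 given above. No group overlapped another, and the order was control, labelled deficient, Bcl2 control, Bcl2-rescued. Fas rose by 2.70 ± 0.28 (6.48-fold, limma adjusted p = 4.5e-05) between the Bcl2 groups and by 3.55 ± 0.28 (11.7-fold, adjusted p = 3.25e-06) with Bcl2 in labelled deficient cells. Its remaining kept probes also passed in both comparisons, at 2.06 and 1.15 in the former. The 1.15 came from a probe above background on only 3 of the 12 arrays. Its passing may follow from the filter and is not read as agreement. In control cells the representing probe rose by 2.13 ± 0.28 with Bcl2 (adjusted p = 0.00127). The remaining probes gave 0.19 and -0.31 there and did not pass, the latter from that same dim probe. The mean over the Fas probes gave 0.67 (adjusted p = 0.0761). Which Fas transcripts the probes read was not tested.

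Zmat3 gave the smallest p of the members with Bcl2 in control cells. It was at 8.59, 8.97 and 8.56 on control, 9.18, 9.72 and 8.93 on labelled deficient, 11.35, 11.65 and 11.34 on Bcl2 control, and 12.41, 12.39 and 12.28 on Bcl2-rescued arrays. Both Bcl2 groups lay clear of the groups without Bcl2 and of each other. The rise with Bcl2 was 2.74 ± 0.21 in control cells (limma adjusted p = 2.68e-05) and 3.08 ± 0.21 in labelled deficient cells (adjusted p = 8.94e-07), and the rise between the Bcl2 groups was 0.91 ± 0.21 (adjusted p = 0.00796).

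Trp53inp1, a cofactor that promotes p53-dependent death, moved by smaller steps on a high level. It read 11.87, 12.33 and 12.07 on control, 12.26, 12.77 and 12.40 on labelled deficient, 13.21, 13.27 and 13.14 on Bcl2 control, and 14.09, 13.92 and 13.89 on Bcl2-rescued arrays. The ranking of the groups was that of Zmat3, with overlap only between the groups without Bcl2. It rose by 1.12 ± 0.17 (limma adjusted p = 0.00262), 1.49 ± 0.17 (adjusted p = 4.99e-05) and 0.76 ± 0.17 (adjusted p = 0.00753) with Bcl2 in control cells, with Bcl2 in labelled deficient cells and between the Bcl2 groups. A second probe passed in both comparisons with Bcl2-rescued arrays. In control cells it gave 1.32 ± 0.36 and did not pass (adjusted p = 0.0509).

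Phlda3 read 7.88, 8.22 and 5.48 on control, 8.56, 9.68 and 8.40 on labelled deficient, 10.36, 9.98 and 10.65 on Bcl2 control, and 11.50, 11.15 and 11.76 on Bcl2-rescued arrays. Control replicate 3 lay far below the other control arrays. With Bcl2 it rose by 3.14 ± 0.60 in control cells (limma adjusted p = 0.00876), which became 2.28 ± 0.35 (adjusted p = 0.00197) without that array and 1.72 over the mean of its probes, and by 2.59 ± 0.60 in labelled deficient cells (adjusted p = 0.00501). A second probe did not pass in either Bcl2 comparison, at 0.31 and 0.67. Between the Bcl2 groups the representing probe did not pass (1.14 ± 0.60, adjusted p = 0.201) while the second probe did, at 1.40 ± 0.38 (adjusted p = 0.0224).

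Ei24, an endoplasmic reticulum protein, and Aen, an apoptosis-enhancing nuclease, rose with Bcl2 in labelled deficient cells, by 0.82 ± 0.26 (limma adjusted p = 0.0273) and by 0.67 ± 0.23 (adjusted p = 0.0344). A second Ei24 probe also passed between the Bcl2 groups, at 0.76 ± 0.18 (adjusted p = 0.0098). A second Aen probe did not pass with Bcl2 in labelled deficient cells, at 0.26 ± 0.23 (adjusted p = 0.415). Tnfrsf10b, the mouse death receptor for the ligand TRAIL, did not pass in any pro-B comparison by its representing probe. Its arrays ran from 5.36 to 6.39 but for control replicate 3 at 9.19. The 2 remaining probes, above background on 4 and 3 of the 12 arrays, passed with Bcl2 in labelled deficient cells, at 1.02 ± 0.20 (limma adjusted p = 0.00187) and 0.85 ± 0.21 (adjusted p = 0.00911), and in no other comparison.

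Among the repair genes, Polk (a polymerase that copies past damaged bases) had the largest rise. It was at 6.46, 6.85 and 8.10 on control, 6.80, 6.86 and 7.06 on labelled deficient, 7.85, 8.41 and 8.55 on Bcl2 control, and 9.32, 9.55 and 9.62 on Bcl2-rescued arrays. Bcl2-rescued arrays lay above all others, and control replicate 3 reached into the Bcl2 control range. Polk rose by 2.59 ± 0.35 with Bcl2 in labelled deficient cells (limma adjusted p = 0.000145) and by 1.23 ± 0.35 between the Bcl2 groups (adjusted p = 0.0226), whereas Bcl2 in control cells gave 1.13 ± 0.35 and did not pass (adjusted p = 0.073).

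Ercc5, the nuclease that cuts 3′ of a lesion in nucleotide excision repair, read 9.35, 9.29 and 10.18 on control, 9.46, 9.92 and 9.77 on labelled deficient, 10.20, 10.51 and 10.37 on Bcl2 control, and 11.28, 11.09 and 11.28 on Bcl2-rescued arrays. The Bcl2-rescued arrays lay above all others, and the Bcl2 control arrays only just above the control arrays. Ercc5 rose by 1.5 ± 0.23 with Bcl2 in labelled deficient cells (limma adjusted p = 0.000373) and by 0.86 ± 0.23 between the Bcl2 groups (adjusted p = 0.018). The latter call was lost without Bcl2-rescued replicate 1, Bcl2-rescued replicate 3 or Bcl2 control replicate 1 (0.78, adjusted p = 0.0717, without the last of these). A second Ercc5 probe had the opposite sign in the Bcl2 comparisons, at -1.45 ± 0.43 with Bcl2 in control cells, -0.56 ± 0.43 in labelled deficient cells and 0.79 ± 0.43 between the Bcl2 groups, none of which passed. The mean of the Ercc5 probes gave 0.82 between the Bcl2 groups and did not pass (adjusted p = 0.0826).

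Xpc rose by 0.83 ± 0.15 with Bcl2 in labelled deficient cells (limma adjusted p = 0.000953), and Ddb2, its partner in recognising ultraviolet damage, fell there by 0.49 on the log2 scale (SE 0.15, adjusted p = 0.0202). The remaining Ddb2 probes gave -0.67 and -0.40 in that comparison and did not pass. Rrm2b, a ribonucleotide reductase subunit for repair, had 0.73 ± 0.29 there and did not pass (adjusted p = 0.0632). Rps27l, a ribosomal protein that steadies p53, was near the top of the scale in every group, from 14.30 to 14.91, with no call.

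Of the metabolic genes, Ephx1 (an epoxide-detoxifying hydrolase) passed with Bcl2 in both states and between the Bcl2 groups. Its values were 10.21, 10.60 and 9.66 on control, 10.22, 11.22 and 10.21 on labelled deficient, 12.30, 12.25 and 12.29 on Bcl2 control, and 13.55, 13.48 and 13.83 on Bcl2-rescued arrays. Groups with and without Bcl2 lay more than 1 log2 unit apart. Ephx1 rose by 2.12 ± 0.29 (limma adjusted p = 0.0014) with Bcl2 in control cells, by 3.07 ± 0.29 (adjusted p = 1.08e-05) in labelled deficient cells and by 1.34 ± 0.29 (adjusted p = 0.00561) between the Bcl2 groups.

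Slc19a2, a thiamine transporter, behaved similarly on a smaller scale, from 9.25, 9.12 and 9.78 on control and 9.95, 10.32 and 9.21 on labelled deficient to 10.44, 10.46 and 10.73 on Bcl2 control and 11.54, 11.58 and 11.86 on Bcl2-rescued arrays. Overlap was confined to the 2 groups without Bcl2. Slc19a2 rose by 1.16 ± 0.27 (limma adjusted p = 0.0228), 1.83 ± 0.27 (adjusted p = 0.000272) and 1.12 ± 0.27 (adjusted p = 0.0104) in the same order. The call in control cells was lost without control replicate 1 or 2 or any Bcl2 control replicate.

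Ak1, a kinase that balances adenine nucleotides, was above background on the 3 Bcl2-rescued arrays and on no other pro-B array. It read 8.61, 8.14 and 8.63 there, against 4.86 to 5.47 on the 9 others. Measured against the background of the Bcl2 control arrays it was at least 6.32-fold higher, and against that of the labelled deficient arrays at least 6.36-fold higher. Its filter made it differ in both comparisons, so its p-values are not read here.

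Abhd4, a lipid hydrolase, showed the same shape from a measurable base. It stood at 7.08, 6.97 and 5.44 on control, 6.99, 7.23 and 7.11 on labelled deficient, 7.11, 7.29 and 6.94 on Bcl2 control, and 9.78, 9.64 and 9.79 on Bcl2-rescued arrays. The rise was 2.63 ± 0.35 both against Bcl2 control (limma adjusted p = 0.000225) and against labelled deficient arrays (adjusted p = 0.000123). One of its 2 promoter windows held a p53 decamer, GGGCTTGTTT, that began 2 bases into the transcript on chromosome 14.

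Sesn1, a sestrin that restrains mTORC1, and Dcxr, a xylulose reductase, rose with Bcl2 in labelled deficient cells, by 0.84 ± 0.23 (limma adjusted p = 0.0122) and 1.58 ± 0.53 (adjusted p = 0.034). A second Sesn1 probe passed in all 3 comparisons with Bcl2 arrays, at 0.65 in control cells, 1.08 in labelled deficient cells and 0.64 between the Bcl2 groups, and a further one passed in none. Between the Bcl2 groups Dcxr had 1.57 ± 0.53 and fell short of the threshold (adjusted p = 0.0501). A second Dcxr probe passed in neither comparison, at 1.33 with Bcl2 in labelled deficient cells (adjusted p = 0.0822) and 1.30 between the Bcl2 groups. Pltp, a phospholipid transfer protein, was above background on 3 of the 12 arrays and did not pass.

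Pvt1, a long noncoding RNA beside Myc, was the signalling member that passed. Its values of 6.35, 6.11 and 5.44 on control and 6.62, 6.84 and 5.80 on labelled deficient arrays were below the 7.47, 7.32 and 7.17 on Bcl2 control arrays and the 8.55, 8.42 and 8.60 on Bcl2-rescued arrays. Pvt1 rose by 1.35 ± 0.28 with Bcl2 in control cells (limma adjusted p = 0.0136, lost without Bcl2 control replicate 1 at adjusted p = 0.0603, and with cyclic loess normalisation at 0.88 and adjusted p = 0.0606), by 2.10 ± 0.28 in labelled deficient cells (adjusted p = 0.00014) and by 1.21 ± 0.28 between the Bcl2 groups (adjusted p = 0.00863). Epha2, a receptor tyrosine kinase, had 2.20 ± 0.65 with Bcl2 in control cells and did not pass (adjusted p = 0.0621), with control replicate 3 at 4.99 and the other control arrays at 7.72 and 8.29.

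Set side by side, the calls of each member fell into patterns. Higher with Bcl2 in both states and also between the Bcl2 groups were 7 members, namely Ccng1, Fas, Zmat3, Trp53inp1, Ephx1, Slc19a2 and Pvt1. Another 3 members, Psrc1, Dyrk3 and Phlda3, were called with Bcl2 in both states and not for the label. A set of 5 members, Gadd45a, Polk, Ercc5, Ak1 and Abhd4, passed against both Bcl2 control and labelled deficient arrays and not with Bcl2 in control cells. For Ak1 this pattern was fixed by its filter. In labelled deficient cells with Bcl2 alone, 6 members rose (Plk2, Ei24, Aen, Xpc, Sesn1 and Dcxr) and Ddb2 fell, Ckap2 fell in both comparisons of the Bcl2-rescued arrays, and 9 members had no call in these 3 comparisons. Rises with Bcl2 in both states were called for 3.56% of all genes, and for 10 of 32 members. By rank alone, 17 members, Ak1 included, had the 3 Bcl2-rescued arrays above the other 9, against 19.1% of all genes, and 12 had the 6 Bcl2 arrays above the 6 without, against 7.1%. These calls are those of the representing probes. Of further kept probes of called members, 1 of 6 passed with the same sign with Bcl2 in control cells. In labelled deficient cells 8 of 15 did, and between the Bcl2 groups 6 of 7. Both of the latter counts include the Fas probe that was above background on only 3 of the 12 arrays. A pattern of calls does not show that effects differ, which the difference of the label effects tests directly.

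That difference, the label effect with Bcl2 minus the label effect without it, passed for 4 of 32 members (12.5%), near the 10.8% of all genes. Of these 4, 3 were positive and 1 negative, where 4.64% and 6.17% of all genes passed in those directions. The median difference was 0.56 over the members and 0.04 over all genes. Ckap2 differed by -2.41 ± 0.41 (limma adjusted p = 0.00304), Abhd4 by 2.01 ± 0.49 (adjusted p = 0.0222) and Fas by 1.43 ± 0.40 (adjusted p = 0.0436). A difference that passed together with a rise between the Bcl2 groups held for 3 members, against 4.51% of all genes. The 4 include Ak1, which had to differ by its filter and was below background in 3 of the 4 groups, so its difference is neither sized nor read here. With replicate pairs as a block the Fas call was lost (adjusted p = 0.0507), and with the pairs blocked within each Bcl2 background, an alternative chosen after seeing the data, it was kept (adjusted p = 0.019). Leaving out single arrays moved the count of passing members between 2 and 9. It was 9 without control replicate 3, and 2 without replicate 1 or 3 of the labelled deficient, Bcl2-rescued or Bcl2 control group.

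The effects could also be set against each other in pairs of comparisons that share no array. Bcl2 effects in control and in labelled deficient cells had the same sign for 26 of 32 members and correlated across the members with a Pearson r of 0.73 and a Spearman rho of 0.81, against r = 0.59 and 68.3% same sign over all genes. Label effects without and with Bcl2 had the same sign for 22 of 32 members with r = 0.41 and rho = 0.54, against r = 0.12 and 53.1% over all genes. Both label effects were positive for 19 members, against 28.4% of all genes. These correlations are across genes, which are not independent replicates, and they describe these arrays only. The same 25 of 32 members had the larger value in the comparison with the Bcl2-rescued arrays in both pairs, because both gaps equal the difference of the label effects, and 52.8% of all genes did.

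**Figure D3:**
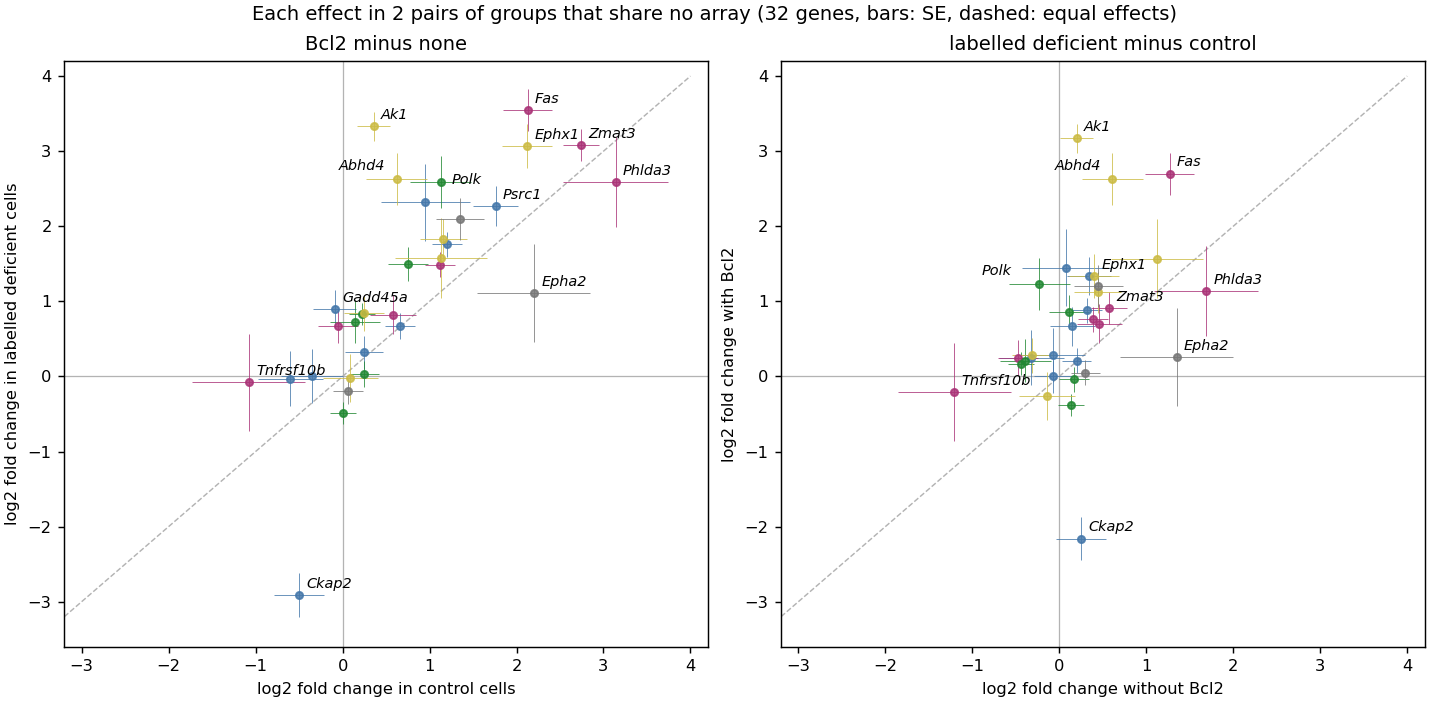
Log2 fold changes with SE bars of the 32 p53 target genes, with the Bcl2 effect in labelled deficient against control cells on the left and the label effect with against without Bcl2 on the right, coloured by role (arrest blue, death purple, repair green, metabolism yellow, signalling grey). On each side the same 25 points lie above the dashed line of equal effects, and Ckap2 lies far below it.

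Other genes of the p53 pathway were taken from a list of 34, of which 30 had a probe and 25 were tested. Between the Bcl2 groups 8 were higher and 1 lower, against 12.8% and 12.3% of all genes. With Bcl2 in control cells 6 were higher and 0 lower, against 4.28% and 3.85%. With Bcl2 in labelled deficient cells 11 were higher and 3 lower, against 21.3% and 18.2%. Without Bcl2 0 were called, against 0.031%. Their medians were 0.48, 0.23, 0.56 and 0.20, and those of all genes 0.04, 0.03, 0.05 and 0.01. Trp53, which encodes p53, was not analysed here. Cdkn1a, the p21 inhibitor of cell-cycle kinases, read 11.90, 11.64 and 10.85 on control, 11.74, 12.18 and 11.42 on labelled deficient, 12.84, 12.65 and 13.0 on Bcl2 control, and 14.40, 14.19 and 14.50 on Bcl2-rescued arrays. All Bcl2 arrays lay above all arrays without Bcl2 and the Bcl2-rescued arrays lay highest, with a rise of 1.37 ± 0.27 with Bcl2 in control cells (limma adjusted p = 0.0104) and of 1.53 ± 0.27 between the Bcl2 groups (adjusted p = 0.00167).

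Mdm2, the ligase that degrades p53 and is itself a target, rose by 0.79 ± 0.20 (limma adjusted p = 0.0369) and 1.22 ± 0.20 (adjusted p = 0.00118) in the same comparisons, and Bbc3, the death activator Puma, rose by 1.82 ± 0.33 (adjusted p = 0.00614) and 1.37 ± 0.33 (adjusted p = 0.00941). Between the Bcl2 groups Pmaip1, the death activator Noxa, rose by 1.19 ± 0.24 (adjusted p = 0.00405), Pml, a nuclear body scaffold, by 0.73 ± 0.17 (adjusted p = 0.00731) and Bcl6, a B cell repressor, by 1.87 ± 0.42 (adjusted p = 0.00694). Siva1, which encodes a death-inducing adaptor, fell there by 1.15 on the log2 scale (SE 0.23, adjusted p = 0.00364). Cd80, a costimulatory ligand, was below background on all control, labelled deficient and Bcl2 control arrays. Like Ak1, it was kept only through the Bcl2-rescued group and had to differ. It was at least 8.72-fold above the background of the Bcl2 control arrays. Cd80 is among the higher genes counted above between the Bcl2 groups and with Bcl2 in both states. In control cells that call compares groups that were both below background.

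Cell-cycle genes and markers of other cells moved along with these results. Between the Bcl2 groups, 12 of 14 genes of mitosis fell (median -3.40) and 16 of 16 of DNA replication fell (median -2.23), with Kif2c, a mitotic kinesin, at -4.11 ± 0.16 (limma adjusted p = 1.06e-07) and Mcm10, a replication factor, at -3.95 ± 0.18 (adjusted p = 1.31e-07). With Bcl2 in control cells 5 of 14 and 2 of 16 fell, with Bcl2 in labelled deficient cells 14 of 14 and 16 of 16, and without Bcl2 0 and 0. Over all genes, 12.3% fell and 12.8% rose between the Bcl2 groups. With Bcl2, 3.85% fell in control cells, and 18.2% fell and 21.3% rose in labelled deficient cells. Without Bcl2, 0.0206% fell. Of 8 myeloid genes tested, 7 fell with Bcl2 in control cells, 6 fell and 1 rose with Bcl2 in labelled deficient cells, and 3 rose and 0 fell between the Bcl2 groups. The summed linear level of the 9 myeloid genes kept over all 15 arrays ranged over 8340 to 15400 on control, 8360 to 14300 on labelled deficient, 481 to 664 on Bcl2 control and 1640 to 3360 on Bcl2-rescued arrays. Of 12 myeloid markers with a probe, 4, 3, 7 and 5 were below background on all arrays of these groups, Itgam and Cebpa in each of them and Mpo and Lyz2 on Bcl2 control arrays. Their part in the results on p53 targets was not tested. In such bulk samples, fewer cells of a type and less RNA per cell cannot be told apart.

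The DN3 cells differed from control pro-B cells in another way. Of 32 members kept among 10290 genes on all 15 arrays, 5 were higher and 13 lower on the DN3 arrays, where 20.9% of all genes were higher and 24.3% lower (45.2% in all). The median was -0.39 over the members (-0.34 with dim members at their bound) and -0.07 over all genes. Slide and group cannot be told apart here, since the DN3 arrays were alone on their slide, and strain and background subtraction differed as well. The share of members called was 56.2%, against 45.2% of all genes. With cyclic loess in place of quantile normalisation 6 members were higher and 9 lower, and 3701 of all genes passed. The arrays did not overlap for 6 higher and 12 lower members, against 21.9% and 24.7% of all genes. T cell genes marked the DN3 arrays, with 10 of 10 higher and a summed linear level of 112000 to 115000 against 1550 to 2330 on control arrays, while early B genes summed to 4090 to 5300.

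Fas was the member with the largest difference, at 5.54, 6.17 and 5.22 on control and 9.93, 10.10 and 10.25 on DN3 arrays (4.44 ± 0.26, limma adjusted p = 7.89e-09). Averaged over its kept probes, the difference was 2.07. Ddb2 was also higher, at 8.85, 9.14 and 8.85 against 10.34, 10.39 and 10.57 (1.49 ± 0.14, adjusted p = 1.35e-06), opposite to its fall with Bcl2 in labelled deficient cells. Fbxw7, a ubiquitin ligase subunit that targets cyclin E and Notch, was higher by 1.34 ± 0.34 (adjusted p = 0.00583), from 8.88, 9.03 and 10.5 to 10.87, 10.78 and 10.77. In a fit of the control and DN3 arrays alone it did not pass (adjusted p = 0.0594). Lif, a cytokine of the interleukin 6 family, went from 5.55, 5.41 and 5.47 to 6.54, 6.43 and 6.73 (adjusted p = 7.4e-05), with its probe below background on every control array, so no size is given. Ak1 was called as the fifth higher member (adjusted p = 0.021), but it was below background on all control arrays and above it on 1 DN3 array only, so no rise can be bounded.

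Arrest genes made up 7 of the 13 lower members. Dyrk3 had the largest difference among them, with 9.07, 9.40 and 9.54 on control and 7.43, 7.30 and 6.79 on DN3 arrays (-2.16 ± 0.19, limma adjusted p = 5.74e-07). Gtse1, which shuttles p53 out of the nucleus, read 11.68, 11.53 and 12.36 against 10.70, 10.30 and 10.09 (-1.49 ± 0.22, adjusted p = 9.14e-05). In both genes the DN3 arrays lay below every control array.

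Gadd45a was lower on DN3 arrays by 1.25 on the log2 scale (-1.25 ± 0.23, limma adjusted p = 0.000636), with 9.35, 9.77 and 8.67 on control and 8.12, 7.93 and 7.99 on DN3 arrays. Ckap2 had 9.96, 9.84 and 8.77 against 8.49, 8.21 and 7.38 (-1.5 ± 0.32, adjusted p = 0.00167). Ccng1 had 11.79, 11.76 and 11.82 against 11.28, 10.74 and 10.94 (-0.80 ± 0.18, adjusted p = 0.00238), but the mean of its probes gave -0.35 and did not pass (adjusted p = 0.082). All 3 were without overlap.

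Psrc1 was at 6.82, 6.49 and 6.51 on control and 5.47, 5.57 and 5.85 on DN3 arrays (-0.98 ± 0.24, limma adjusted p = 0.00516). With cyclic loess in place of quantile normalisation the difference was -0.15 and did not pass (adjusted p = 0.692). Plk2 read 5.83, 6.43 and 8.04 on control and 5.19, 4.63 and 5.22 on DN3 arrays, where it was below background. It passed (adjusted p = 0.00712) and was at least 2.00-fold below the control mean, a bound raised by control replicate 3. Its fitted difference of -1.75 became -1.12 without control replicate 3, and it did not pass in a fit of these 2 groups alone (adjusted p = 0.0547) or with cyclic loess (-0.37, adjusted p = 0.561). Outside the arrest group Rrm2b had the largest difference, from 9.69, 9.92 and 10.87 on control to 7.91, 7.67 and 8.00 on DN3 arrays (-2.30 ± 0.27, adjusted p = 9.45e-06). The remaining lower members were Xpc, Ei24, Slc19a2, Epha2 and Pvt1, with fitted differences of -0.48 to -1.86. Epha2 and Pvt1 were below background on all DN3 arrays, and the Epha2 arrays overlapped.

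**Figure D4:**
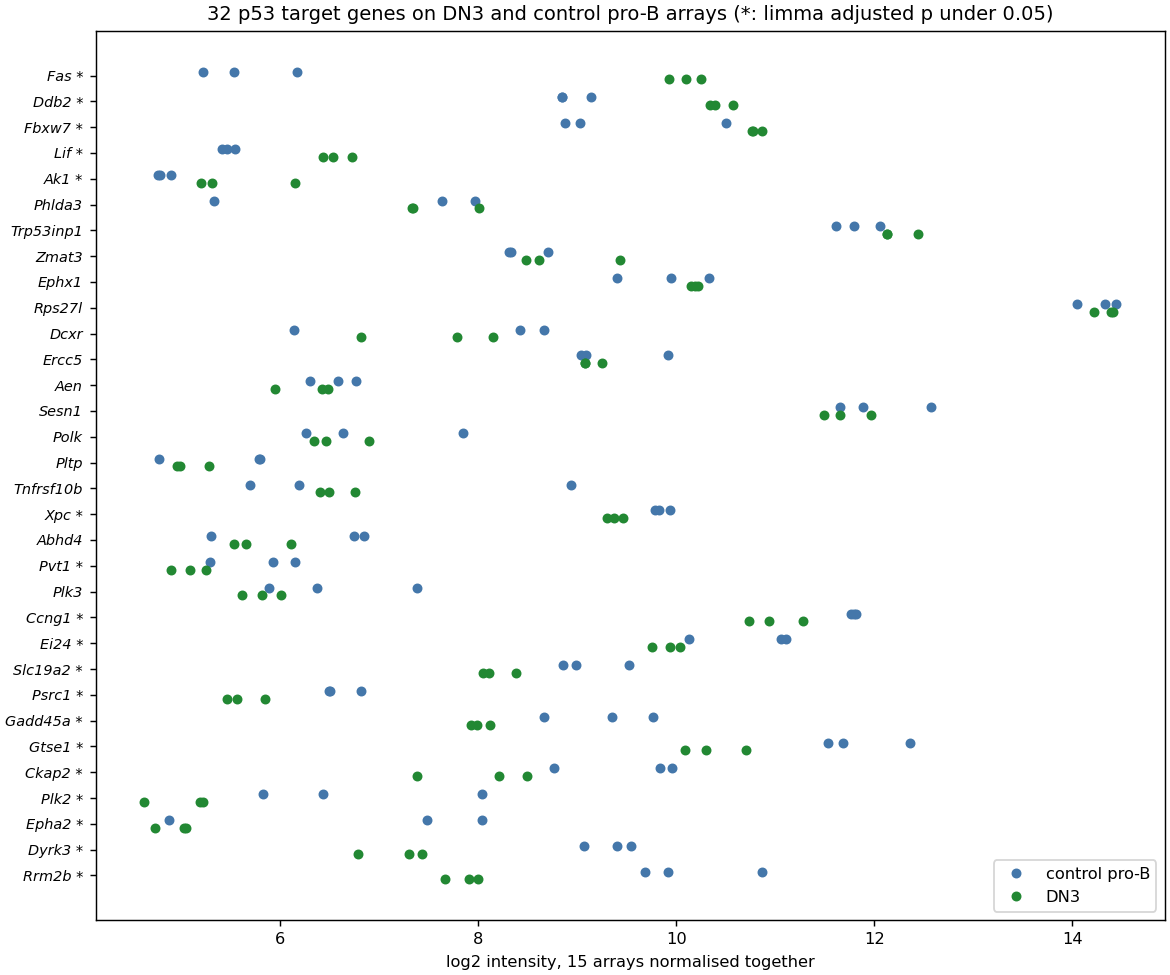
Normalised log2 intensity (horizontal axis, all 15 arrays normalised together) of the 32 p53 target genes on the 3 control pro-B arrays (blue) and the 3 DN3 arrays (green), ordered by difference, with an asterisk for a limma adjusted p under 0.05. Fas stands apart at the top, and Rrm2b and Dyrk3 lie at the bottom among 13 lower genes.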

How the data were processed

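Total RNA of 15 samples was hybridised to Illumina bead arrays after labelling with the Ambion MessageAmp kit, per the labels' protocols. Scanner and software were not given in the sources used here. For each array the deposited table gives 45263 probes with a linear intensity, not normalised between arrays, and a detection value that is a fraction. Between 33.2 and 39.9% of probes were below 0 on pro-B arrays and none on DN3 arrays, so only the former were background-subtracted. The detection p was taken as 1 minus that fraction. A score per probe (intensity centred and divided by its SD over the arrays) fills the deposited series matrix and served as an alternative only.

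With limma 3.58.1 in R 4.3.3, the deposited intensities were converted to log2 values by neqc (normexp background from detection p, offset 16, quantile normalisation), for the 12 pro-B arrays alone and for all 15 arrays in the DN3 comparison. Probes detected on at least 3 arrays fitted were kept, and the one with the highest mean stood for its gene. A model with 1 mean per group was fitted with lmFit and eBayes for 6 comparisons, with Benjamini-Hochberg adjustment over all genes tested (9687 or 10290) and a call at an adjusted p under 0.05. Errors are standard errors, and the number of arrays limits the precision. P-values rest on the spread between arrays of cultures said to be in 3 batches, which may in part be technical. With 3 arrays a side, the smallest exact two-sided permutation p is 0.1, so no such test was used. A fold against a group below background on all its arrays is a bound, in which each array of the dim group takes the lowest level of any detected probe, or the probe's own level where that is higher.

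Replicate numbers come from the titles. Same-numbered arrays deviated together within each Bcl2 background (correlations 0.23 to 0.39), so the numbers were taken as possible pairs for the label comparisons. For Bcl2 (-0.13 to 0.32) and DN3 (0.04 to 0.09) they were not. The main fits had no block, and pairs entered only in alternatives. Both arrays of each label pair were on the same slide, so pairing and slide cannot be told apart. The members, roles, lists and tests were chosen with earlier results of these data known. Of the members, full values are given for the 12 of smallest p among those that passed in a comparison, or the 4 of smallest p where none passed, and of the other p53 pathway genes for 8 at most. Alternatives covered normalisation, background, filters, probes, array weights, blocks, slides and single arrays. The fit was tested on simulated data. Promoter sequences are RefSeq's on GRCm38.p6, and the p53 decamer was searched by its consensus.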

Additional observations from a re-analysis of the deposited data

Results flagged for a closer look

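In 4 members the label effect with Bcl2 differed from that without Bcl2 by limma's test of the difference itself. For Ckap2 the difference was -2.41 on the log2 scale (SE 0.41, adjusted p = 0.00304), lower on 3 of 3 Bcl2-rescued arrays than on any other pro-B array. Abhd4 had 2.01 (SE 0.49, adjusted p = 0.0222), which became 2.54 without control replicate 3 and lost its call without replicate 1 or 3 of the labelled deficient, Bcl2-rescued or Bcl2 control group (adjusted p 0.0528 to 0.0587). Fas had 1.43 (SE 0.40, adjusted p = 0.0436), and its call was lost in 16 of 26 alternatives, with an adjusted p between 0.00403 and 0.377. The remaining kept Fas probes gave 1.82 (SE 0.44, adjusted p = 0.0273) and, from a probe above background on 3 arrays only, 1.20 (SE 0.29, adjusted p = 0.0282). Ak1 had a fitted difference of 2.97, which is no measured size, since all 9 arrays outside the Bcl2-rescued group were below background and its filter made it differ. The members that differed were 4 of 32 (12.5%), Ak1 included, a share near the 10.8% of all genes.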

How the results depend on the processing

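Single slides, control replicate 3, array weights and the series matrix scores moved the counts most. Without Bcl2, 0 members passed in the main setting and in each fit without 1 array (0 to 0). The count of 0 did not hold within slide 2. There each of these groups had 1 array, and that of the control group was the dim control replicate 3. The differences within slide 2 were 1.71 for Fas, 2.92 for Phlda3, 0.37 for Zmat3 and -0.43 for Xpc. The members' median difference was 0.28 within slide 1 and 0.08 within slide 2. Between the Bcl2 groups 13 passed, 3 within slide 1, and 11 to 18 without single arrays. The difference of label effects passed for 4, with 2 on intensities floored at 16 without background correction, 10 with array weights, 0 with the scores, 2 within slide 1, 14 within slide 2 and 2 to 9 without single arrays. With Bcl2 in control cells 10 passed, with 16 under array weights, 5 in a fit of only the groups compared, 0 with the scores and 7 to 17 without single arrays. The calls did not hold within slide 1, which had 1 Bcl2 control array. The members' median difference was 0.45 there and 0.48 within slide 2, where control replicate 3 was the only control array. With Bcl2 in labelled deficient cells 23 passed and no alternative moved the count by over 1.5 times (18 to 25 without single arrays). For DN3 18 passed, 11 in a fit of only the groups compared, 6 with the scores, and 15 to 22 without single arrays.

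With slide as a block 0, 16, 5, 13 and 23 members passed in the 5 pro-B comparisons. With replicate numbers as a block, 0, 15, 4, 11, 24 and 18 members passed in those 6 comparisons, and with pairs blocked within each Bcl2 background, chosen after seeing the data, 0, 16 and 6 in the first 3. Of the 54 results for named members, 19 kept their call in every alternative, and of 1405 pairs of result and alternative 1297 kept it, 103 lost it, 2 gained it and 3 changed sign. The sign changes were all with the scores, in SD units: Xpc without Bcl2 at 0.04, and Ddb2 at -0.73 and Fbxw7 at -0.98 in DN3. The cause was not tested.

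Counts over all genes moved too. Array weights gave 4475 in place of 2426 between the Bcl2 groups, 2373 in place of 1047 for the difference and 2062 in place of 788 with Bcl2 in control cells. Without control replicate 3 these were 4066, 2018 and 1981, and within slide 1 they were 528, 116 and 25. In a fit of only the groups compared, DN3 had 2686 in place of 4646. Members near background (Ak1, Pltp, Lif, Tnfrsf10b) are limited by signal over background.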
